A study of Mus musculus with 39 samples.

Results

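The collagen genes were taken as all protein-coding genes whose mouse symbol is Col followed by a number, the letter a and a number. This rule finds 44 genes among the 49585 genes of each count table, and it uses no measured value. Stranded mRNA sequencing had been done on 39 libraries from C57BL/6 mice. All animals carried ApcMin/+, a truncating allele of the tumour suppressor Apc with which mice grow intestinal adenomas. The 16 libraries with wild-type Adam17 came from 12 tumour samples and 4 samples of surrounding non-tumour tissue (wild type below), and 23 libraries from mice homozygous for the ADAM17 ex allele came from 17 tumour and 6 non-tumour samples (ex/ex below). ADAM17, a membrane protease, releases the IL-6 receptor and ligands of the EGF receptor from the cell surface, both pathways named in the title of the series. The ex allele is a germline one that lowers Adam17 in every cell type, and the non-tumour tissue carries ApcMin/+ as well. Animals are not identified in the labels, so samples may share an animal, and each p-value below reflects sample-to-sample spread. Among tumours, Adam17 counts followed the labels: its level was 38.4 to 86 CPM (counts scaled to a common library size) in wild-type tumours and 14.5 to 33.5 CPM in ex/ex tumours.

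Collagens are secreted or membrane proteins in which 3 chains wind into a helix, each chain built of repeats that start with glycine, the only residue small enough for the helix axis. Fibrillar collagens assemble into the fibres of connective tissue, with fibril-associated collagens (FACIT) on their surface. Collagen IV forms the sheet of basement membranes under epithelium and around vessels and muscle, collagen VI forms beaded filaments beside it, and collagen VII anchors epithelial basement membranes to the fibres below. In the intestine most of these genes are known to be expressed by fibroblasts, smooth muscle, endothelium and glia rather than by epithelial cells. By class, the 44 genes were 11 fibrillar, 9 FACIT, 6 basement membrane network (Col4a1 to Col4a6), 6 beaded filament (Col6a1 to Col6a6), 4 transmembrane, 3 short-chain, 2 multiplexin (Col15a1 and Col18a1), 1 anchoring (Col7a1) and 2 other genes (Col26a1 and Col28a1).

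The classes differ in the coding sequence itself, which is shown here because the class order is used throughout. A glycine codon starts with GG, and the length of the longest run with such a codon at the first place of every 3 codons was counted in the transcript with the longest coding sequence of each gene (GENCODE M21 transcripts). The run was 337 to 344 repeats in 9 of the 11 fibrillar genes and 216 and 217 in Col24a1 and Col27a1, whereas it was at most 113 in the other 33 genes. The 30 codons below, from codon 464 of Col3a1 (chr1:45311538-45349706, plus strand, GRCm38) and codon 145 of Col4a1 (chr8:11198423-11312826, minus strand), have codons starting with GG in capitals. They stand at every repeat of Col3a1, while the spacing breaks in Col4a1, whose longest run is 40.
Col3a1: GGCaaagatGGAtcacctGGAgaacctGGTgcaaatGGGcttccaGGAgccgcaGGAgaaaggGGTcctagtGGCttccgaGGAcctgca
Col4a1: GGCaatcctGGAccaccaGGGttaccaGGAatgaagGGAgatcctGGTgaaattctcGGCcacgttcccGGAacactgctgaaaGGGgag

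The collagen IV genes also stand in head-to-head pairs, shown because the members of a pair are followed together in the results. Col4a1 and Col4a2 start on opposite strands of chromosome 8 at positions 11312826 and 11312805, so that their annotated first exons overlap by 22 bases. In chr8:11312801-11312830 (plus strand, GRCm38, RefSeq sequence), the capitals mark the bases from the Col4a2 start to the Col4a1 start.
Col4a1 and Col4a2 starts: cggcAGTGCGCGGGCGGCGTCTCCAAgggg
Between the starts of Col4a4 and Col4a3 on chromosome 1 lie 71 bases, chr1:82586850-82586920, given here on the minus strand, the sense strand of Col4a4. They hold no match on either strand to the 3 motifs counted next, hence no capitals.
Col4a4 and Col4a3 gap: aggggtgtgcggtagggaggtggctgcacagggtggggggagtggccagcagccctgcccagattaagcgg
The starts of Col4a5 and Col4a6 on chromosome X lie farther apart, with 1308 bases between the genes. Over the 250 bases before the start of the 35 collagen genes in the RefSeq promoter table, CCAAT or its reverse complement occurred in 13 genes (37.1%), against 37.5% of all 27025 genes in that table. GGGCGG occurred in 21 of the 35 (60.0%, against 35.4% of all genes), and TATAAA in 5 (14.3%, against 14.3%). A match is a run of letters and not a bound site.

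Libraries held 5668185 to 11112321 gene counts, except wild-type non-tumour replicate 1 with 438639 counts and 118 collagen counts. With its TMM scaling factor of 0.377, 1 count in that library is worth 6.06 CPM. Wild-type non-tumour replicate 4 stands apart on the other side, with collagens at 0.508% of its counts against 0.0376 to 0.248% in the other deeply sequenced libraries, and its summed endothelial markers were 1161 CPM against 120 to 254.3 CPM in the rest of its group. Of the 44 collagen genes, 43 had at least 1 count, Col10a1 had none in any library, and 37 passed the filter on low counts and were tested. Those not tested were Col10a1, Col11a1, Col19a1, Col25a1, Col26a1, Col2a1 and Col9a1, none of which exceeded 2.02 CPM in any library.

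Levels between genes were compared as CPM per kb of transcript. Col3a1, the chain of collagen III, had the highest median in each of the 4 groups, 46.4 CPM per kb in wild-type non-tumour tissue, 41.5 in wild-type tumours, 50.8 in ex/ex non-tumour tissue and 18.8 in ex/ex tumours. The next 5 places over all libraries were held by Col4a1 and Col4a2 of basement membranes, Col6a1 and Col6a2 of beaded filaments, and Col1a2, a chain of collagen I. These 6 genes filled the first 6 places in each group, in an order that differed between groups. Their medians in ex/ex tumours were 9.17 to 18.8 CPM per kb, and those in wild-type tumours 17.8 to 41.5. At the other end, Col6a6, Col9a1, Col11a1, Col19a1 and Col2a1 had group medians of at most 0.0409 CPM per kb. The 3 classes with the largest median shares of the total were the same in every group. Fibrillar genes held a median of 38.7, 38.0, 36.8 and 39.9% of the collagen total per kb in wild-type non-tumour, wild-type tumour, ex/ex non-tumour and ex/ex tumour libraries. Beaded filament genes held 26.5, 26.4, 28.9 and 26.8%, and basement membrane network genes 16.5, 18.9, 16.1 and 19.4%. Of the smaller classes, multiplexins held medians of 7.87, 7.25, 7.74 and 5.51%, transmembrane collagens 2.69, 1.68, 2.89 and 2.03%, and Col7a1 0.0688, 0.189, 0.115 and 0.366%, given as a description with no test. The FACIT share reached 21.1% in 1 wild-type tumour and at most 8.16% in any ex/ex library. All wild-type non-tumour medians in this paragraph include replicate 1, whose values rest on 118 collagen counts.

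**Figure D1:**
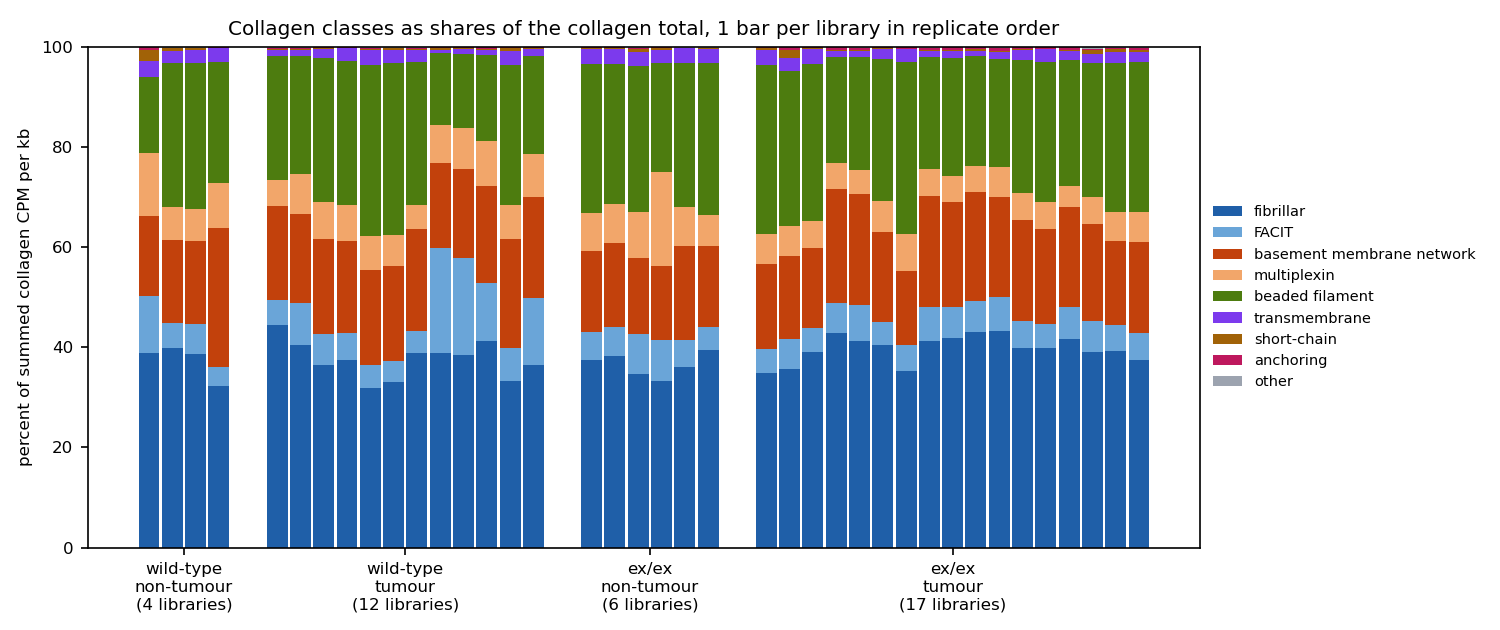
Share of each collagen class in the summed CPM per kb of all collagen genes (vertical axis, percent), 1 stacked bar per library in replicate order within the 4 groups. Fibrillar, beaded filament and basement membrane network genes fill most of every bar, and wild-type tumours 8 and 9 carry the tallest FACIT segment.

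Collagen expression was lower in ex/ex tumours than in wild-type tumours, with fibrillar, basement membrane and beaded filament genes among those that fell. In edgeR quasi-likelihood tests, Benjamini-Hochberg adjusted over 16327 genes at a threshold of 0.05, 26 of the 37 tested collagen genes fell and none rose, while 18.0% of all tested genes fell and 15.2% rose. The log2 fold change was negative for 36 of the 37, with a median of -0.89 against -0.01 over all genes tested. The summed level of the 44 genes was 776 to 1919 CPM in wild-type tumours (median 1459) and 460 to 1063 CPM in ex/ex tumours (median 743), so the ranges overlapped in their middle. In tissue RNA, fewer cells of a type and less RNA per cell cannot be told apart. B cell markers moved with this difference: their summed level was 1184 to 3306 CPM in 15 of 17 ex/ex tumours and 1445 to 2758 CPM in 3 of 12 wild-type tumours. With the mean log2 CPM of these markers as a covariate (chosen after seeing the data) 9 collagen genes fell, 8 of them among the 26 (Col1a1, Col1a2, Col14a1, Col15a1, Col18a1, Col4a1, Col4a2 and Col4a3), and the median log2 fold change was -0.72. The 8 retained calls hold no beaded filament gene. With that covariate 8.12% of all genes fell and 12% rose. Without TMM scaling 21 collagen genes fell and none rose, and the calls over all genes went from 2488 higher and 2941 lower to 1072 and 2271. In the 3 wild-type tumours with high B cell sums, replicates 1, 4 and 7, the collagen sum was 776, 1732 and 1012 CPM, and in the ex/ex tumour with the lowest B cell sum, replicate 2 (10.7 CPM), it was 510 CPM.

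**Figure D2:**
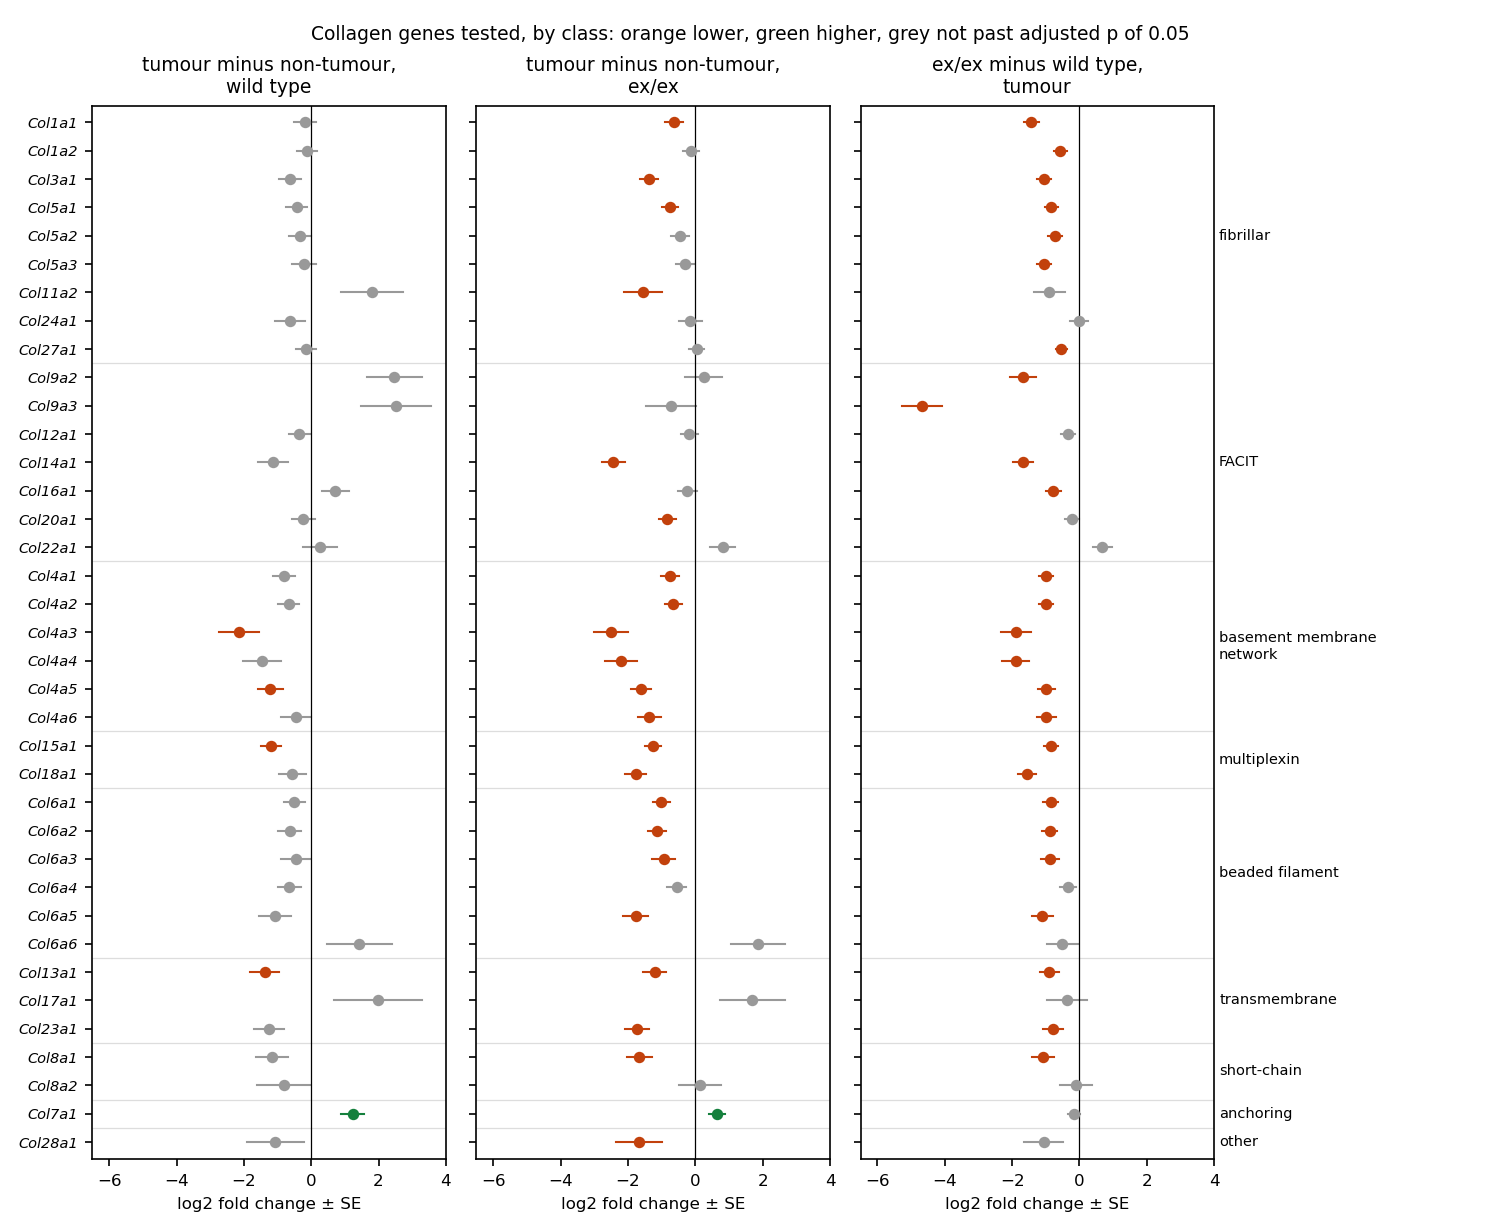
Log2 fold change (horizontal axis, point) with its standard error (line) for the 37 tested collagen genes in 3 comparisons, grouped by class, with genes past the threshold in orange (lower) or green (higher). In ex/ex against wild-type tumours the point lies left of 0 for 36 genes.

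Of 9 tested fibrillar genes, 7 were lower in ex/ex tumours. With the B cell covariate the calls of Col1a1 and Col1a2 held, and the other fibrillar calls were lost. Col1a1, which encodes the alpha 1 chain of collagen I (chr11:94936224-94953042), had a lowest, median and highest level of 51.3, 94.7 and 176 CPM in wild-type tumours and of 24, 36.8 and 55.7 CPM in ex/ex tumours. All but 1 of the ex/ex tumours lay below every wild-type tumour, and the log2 fold change was -1.43 ± 0.22 (SE, adjusted p = 4.30e-06, edgeR). Col1a2, the alpha 2 chain of the same trimer, ranged over 74.6 to 227 CPM in wild-type and 37 to 121 CPM in ex/ex tumours, with wide overlap. Its log2 fold change was -0.57 ± 0.19 (adjusted p = 0.02), and without wild-type tumour replicate 4 its adjusted p was 0.061. Col3a1 had 91.8, 230.9 and 337 CPM in wild-type tumours and 55.2, 105 and 177 CPM in ex/ex tumours. Thus 8 of the 17 ex/ex tumours lay below all wild-type tumours for Col3a1, and the log2 fold change was -1.05 ± 0.22 (adjusted p = 3.67e-04). Among the chains of collagen V, which starts and limits fibril growth, Col5a1 fell from a median of 29.6 to 16.3 CPM, Col5a2 from 39 to 24.5 CPM and Col5a3 from 7.19 to 3.98 CPM, with log2 fold changes of -0.84, -0.73 and -1.06. Col27a1, a fibrillar chain known from cartilage, had medians of 9.99 and 7.2 CPM and a log2 fold change of -0.54 ± 0.17 (adjusted p = 0.015, 0.054 without wild-type tumour replicate 8). The 2 tested fibrillar genes that did not pass were Col11a2 (-0.89 ± 0.47) and Col24a1 (-0.02 ± 0.27).

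**Figure D3:**
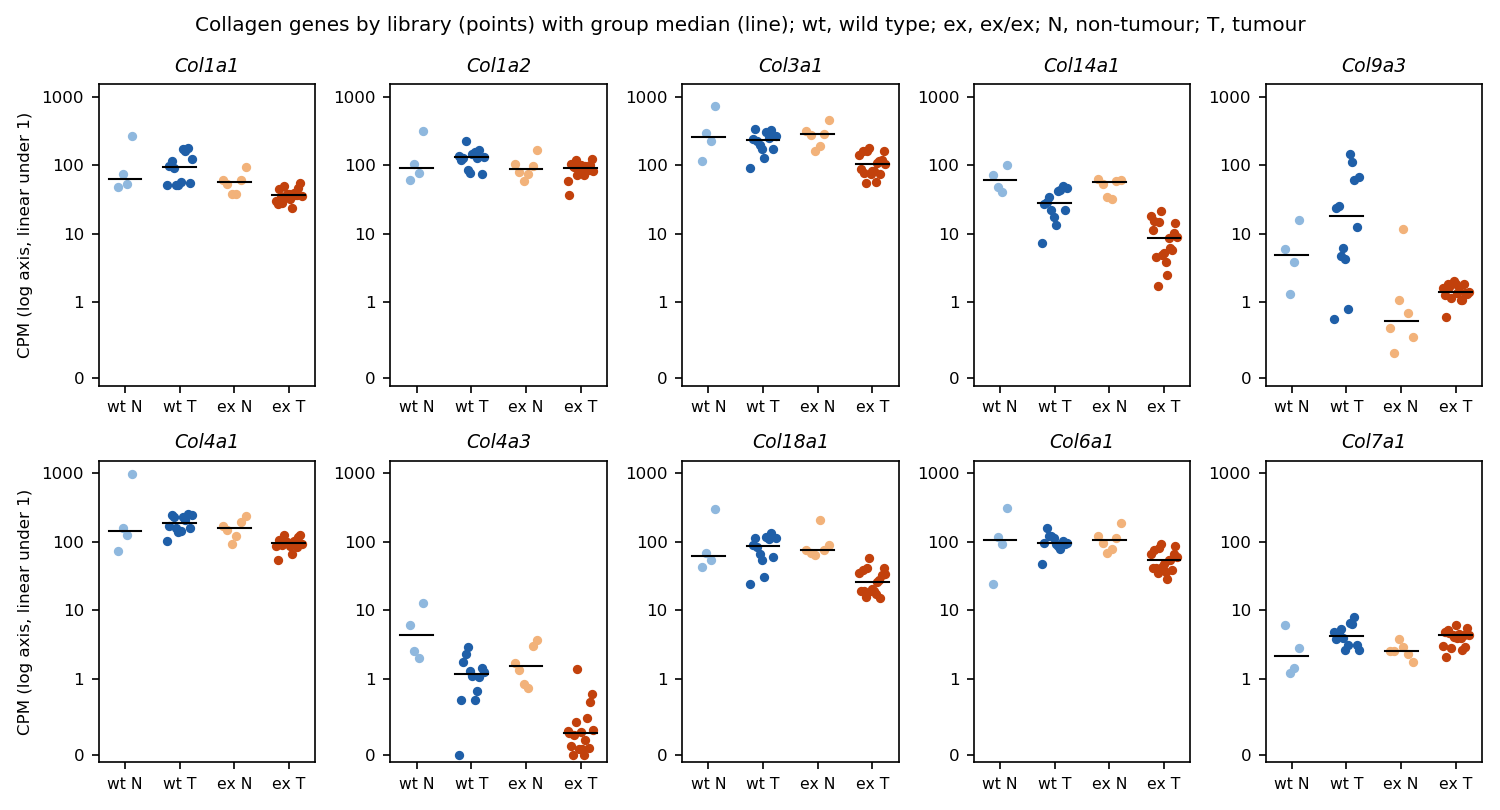
CPM (vertical axes, logarithmic above 1 and linear below) of 10 collagen genes in each library (points) of the 4 groups, with the group median as a line. Col1a1, Col4a1 and Col18a1 sit lower in ex/ex tumours than in wild-type tumours, while the Col7a1 ranges overlap almost wholly.

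Of 7 tested FACIT genes, 4 were lower in ex/ex tumours. Col9a3, a chain of collagen IX known from cartilage (chr2:180597790-180622189), had the most negative log2 fold change of the 37 genes, -4.68 ± 0.59 (adjusted p = 2.11e-07, edgeR). Its lowest, median and highest values were 0.781, 17.9 and 145 CPM in wild-type tumours and 0.808, 1.43 and 2.01 CPM in ex/ex tumours. The 10 wild-type tumours other than replicates 1 and 7 lay at 4.31 CPM or above, higher than all ex/ex tumours, and replicates 8, 9, 10 and 12 lay between 60.8 and 145 CPM. Replicates 1 and 7, at 0.781 and 0.909 CPM, lay within or below the ex/ex range, and both belong to the 3 wild-type tumours with high B cell sums. With the B cell covariate the log2 fold change of Col9a3 was -1.66 and its call was lost (adjusted p = 0.14, edgeR). Col9a2, another chain of collagen IX, was highest in wild-type tumours 8, 9, 10 and 12 as well, at 8.64 to 15.6 CPM, and its log2 fold change was -1.67 ± 0.40 (adjusted p = 0.0015). Col9a1, the remaining chain of collagen IX, was not tested, with a highest value of 0.836 CPM. Col14a1, which binds the surface of collagen I fibrils, had 7.38, 28.1 and 49.9 CPM in wild-type and 1.73, 8.67 and 21.1 CPM in ex/ex tumours, and 8 of the 17 ex/ex tumours lay below all wild-type tumours (-1.68 ± 0.29, adjusted p = 3.53e-05). Col16a1 had medians of 16 and 11.7 CPM (-0.77 ± 0.23, adjusted p = 0.0094, 0.050 without wild-type tumour replicate 8). Col12a1, Col20a1 and Col22a1 did not pass the threshold, with log2 fold changes of -0.35, -0.22 and 0.69.

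All 6 basement membrane network genes were lower in ex/ex tumours. Col4a1, whose chain forms the common network with that of Col4a2, had 101, 189.7 and 253.4 CPM in wild-type tumours and 54.6, 97 and 124 CPM in ex/ex tumours. For Col4a1, 12 of the 17 ex/ex tumours lay below all wild-type tumours, and the log2 fold change was -0.99 ± 0.22 (adjusted p = 7.33e-04, edgeR). Its head-to-head partner Col4a2 had 58.5, 115 and 170.0 CPM and 35.6, 59.1 and 75.2 CPM, with a log2 fold change of -1.002 ± 0.21 and an adjusted p of 3.39e-04. The pair Col4a3 and Col4a4, chains of the network best known from the kidney glomerulus, was at low levels, with medians of 1.17 and 0.756 CPM in wild-type tumours and 0.285 and 0.26 CPM in ex/ex tumours. Both had a log2 fold change of -1.89, with an SE of 0.45 for Col4a3 and 0.40 for Col4a4. Col4a5, known as the partner of that pair, and Col4a6, known around smooth muscle, had log2 fold changes of -0.98 ± 0.25 and -0.99 ± 0.28. The members of each head-to-head pair had nearly equal log2 fold changes here, but so did Col4a1, Col4a2, Col4a5 and Col4a6 across pairs. The multiplexins Col18a1, whose end fragment is endostatin, and Col15a1 both fell. Col18a1 had 24.1, 86.4 and 135 CPM in wild-type and 15.3, 25.3 and 57.2 CPM in ex/ex tumours (-1.57 ± 0.27, adjusted p = 2.61e-05). Col15a1 had 9.69, 19.6 and 31.8 and 8.72, 10.8 and 17.2 CPM (-0.84 ± 0.20, adjusted p = 0.0021). These basement membrane calls all held when any single library was left out. With the B cell covariate the calls of Col4a4, Col4a5 and Col4a6 were lost. Endothelial markers moved with them: 7 of 8 fell in ex/ex tumours, where 18.0% of all tested genes fell. The summed level of these markers was 102 to 337 CPM in wild-type and 67.3 to 149 CPM in ex/ex tumours, and their part in the result was not tested.

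Among the beaded filament genes, Col6a1, Col6a2, Col6a3 and Col6a5 were lower in ex/ex tumours, and Col6a4 and Col6a6 did not pass. With the B cell covariate none of these 4 calls held. Col6a1, the alpha 1 chain of collagen VI, had 47.5, 95.5 and 159 CPM in wild-type tumours and 28.2, 53.2 and 91 CPM in ex/ex tumours. For Col6a1, 7 of the 17 ex/ex tumours lay below all wild-type tumours (-0.86 ± 0.21, adjusted p = 0.0023, edgeR). Col6a2 and Col6a3, the other chains of the common trimer, had log2 fold changes of -0.89 ± 0.23 and -0.87 ± 0.28. Col6a5, an alternative to the alpha 3 chain, fell from a median of 10.4 to 3.47 CPM (-1.10 ± 0.32), while its neighbour Col6a4 had medians of 53 and 48.2 CPM (-0.34 ± 0.23). Of the transmembrane collagens, Col13a1 and Col23a1 fell (-0.90 ± 0.28 and -0.78 ± 0.30) and Col17a1 of hemidesmosomes did not pass (-0.38 ± 0.60). The Col23a1 call held in 26 of the 39 fits that left out 1 library, with an adjusted p of up to 0.076 in the others. Col8a1, a short-chain collagen known from vessel walls, fell (-1.09 ± 0.32), and Col8a2 did not pass (-0.10 ± 0.47). Col7a1, the anchoring fibril chain (chr9:108953586-108984875), had 2.64, 4.17 and 7.98 CPM in wild-type and 2.08, 4.29 and 6.04 CPM in ex/ex tumours, ranges that nearly coincide, with a log2 fold change of -0.16 ± 0.18 and a 95% interval of -0.50 to 0.18. Fibroblast markers stood beside these genes with 5 of 10 lower in ex/ex tumours (Pi16, Pdgfrb, Cd34 and Fbln2 with the smallest p), their summed level at 250 to 427 CPM in wild-type and 228 to 647 CPM in ex/ex tumours. For smooth muscle 4 of 8 were lower (Smtn, Tagln, Acta2 and Des), with median sums of 1699 and 759 CPM and highest sums of 2503 and 2886 CPM, and for glia 1 of 4 (S100b), with sums of 3.04 to 8.40 and 2.31 to 5.74 CPM. Of the 7 epithelial markers, Krt18, Cdh1 and Krt8 were lower, with median sums of 15107 CPM in wild-type and 8265 CPM in ex/ex tumours. The epithelial sums ranged over 474 to 18207 CPM and 2451 to 21282 CPM. Mesothelial markers showed 1 of 3 tested lower (Msln), and macrophage markers 1 higher (Cd68) and 1 lower (Adgre1) of 6. Over all tested genes 18.0% were lower and 15.2% higher in this comparison, so 1 gene in lists this short lies near that share. The part of these cell types in the collagen values was not tested.

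**Figure D4:**
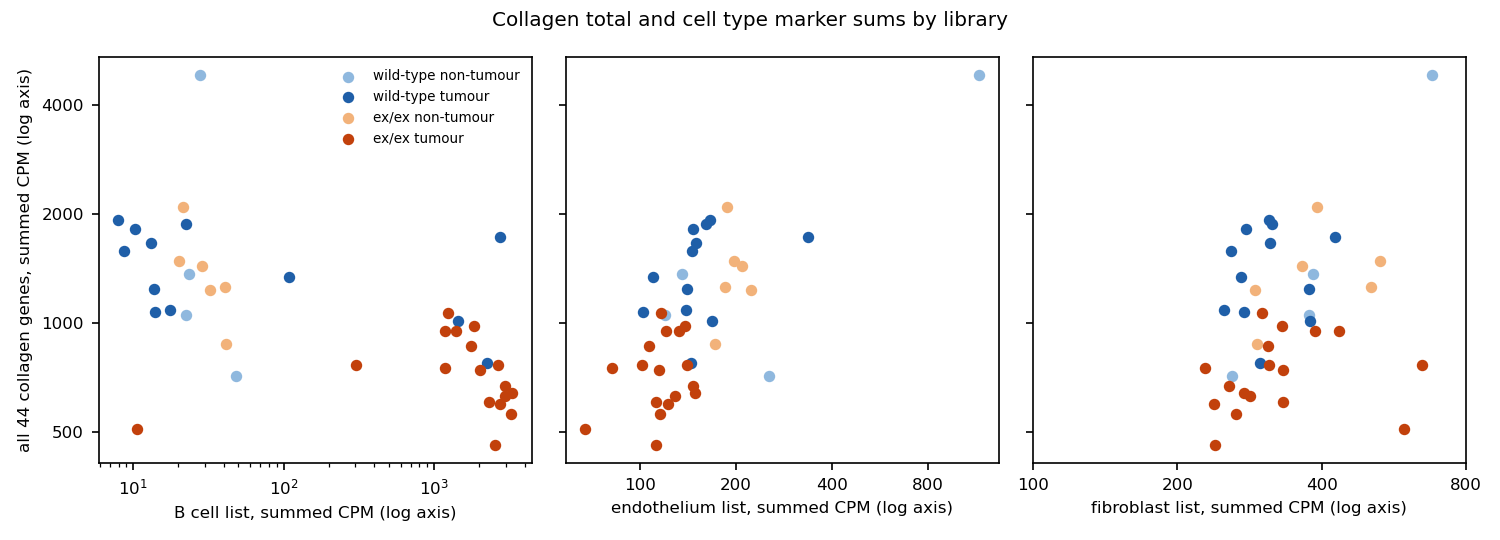
Summed CPM of the 44 collagen genes (vertical axis, log) against the summed CPM of 6 B cell, 8 endothelial and 10 fibroblast marker genes (horizontal axes, log), 1 point per library in the colour of its group. Ex/ex tumours lie at 460 to 1063 CPM of collagen, and wild-type non-tumour replicate 4 lies apart at 4826 CPM.

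Within the ex/ex genotype, collagens were lower in tumours than in non-tumour tissue. Of the 37 tested genes 22 fell and 1, Col7a1, rose (edgeR, adjusted p below the threshold of 0.05), where 23.3% of all tested genes fell and 23.8% rose. The median log2 fold change was -0.76, against -0.03 over all genes. Summed collagen was 877 to 2093 CPM in ex/ex non-tumour tissue. B cell markers rose, 6 of 6, from a sum of 20.2 to 41.4 CPM in non-tumour tissue to 10.7 to 3306 CPM in tumours, and with the B cell covariate 6 collagen genes fell (Col14a1, Col15a1, Col4a3, Col4a5, Col6a5 and Col23a1) and none rose, where 12% of all genes fell and 9.09% rose. With the covariate the median log2 fold change of the 37 genes was -0.70. Without TMM scaling 14 fell and 3 rose, the median over all genes moved to 0.24, and the calls over all genes went from 3885 higher and 3800 lower to 5180 and 2267. Without TMM the median of the collagen genes minus that of all genes was -0.74, against -0.73 with TMM. The overlap of these calls with those between genotypes is not a separate result, since both comparisons use the 17 ex/ex tumours.

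Separation was complete for Col14a1, Col18a1 and Col23a1, for which each of the 17 ex/ex tumours lay below each of the 6 ex/ex non-tumour samples. Of all tested genes, 3.03% separated in this way and 1.49% with all tumours higher. Col14a1 was at 31.5, 56.1 and 62.8 CPM (lowest, median and highest) in non-tumour tissue, and its log2 fold change was -2.44 ± 0.34 (adjusted p = 1.27e-06, edgeR). Col18a1 was at 63.3, 75.6 and 204 CPM there, the highest value being replicate 4 (-1.78 ± 0.32, adjusted p = 4.87e-05). Col23a1, a membrane collagen, was at 16.17, 28 and 44.4 CPM in non-tumour tissue and 2.94, 7.97 and 16.16 CPM in tumours (-1.73 ± 0.35, adjusted p = 2.04e-04). Its 2 ranges thus nearly touch. All 6 basement membrane network genes fell, from -2.50 ± 0.51 for Col4a3 and -2.22 ± 0.47 for Col4a4 through -1.61 ± 0.30 for Col4a5 and -1.37 ± 0.33 for Col4a6 to -0.76 ± 0.27 for Col4a1 and -0.66 ± 0.26 for Col4a2. Col4a3 was at 0.879, 1.52 and 3.71 CPM in non-tumour tissue and 0, 0.285 and 1.4 CPM in tumours, where 16 of the 17 tumours lay below all non-tumour samples. The Col4a1 call was lost without ex/ex non-tumour replicate 5 (adjusted p = 0.053) or 6 (0.080), and the Col4a2 call held in 27 of 39 fits that left out 1 library (up to 0.11). Endothelial markers fell in 7 of 8 cases here, with sums of 172 to 223 CPM in non-tumour tissue. Of the fibroblast markers 6 fell and 2 rose (Thy1 and Ly6a), and all 4 glial markers fell, while none of 8 smooth muscle and 7 epithelial markers passed. Of the 3 tested mesothelial markers Msln and Lrrn4 rose, and of the 6 macrophage markers Cd68 rose and Adgre1 fell. Over all tested genes 23.3% fell and 23.8% rose in this contrast. These lists' part in the collagen values was not tested.

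The chains of the fibrillar genes differed in this contrast. Col3a1 fell from 159, 282 and 456 CPM in non-tumour tissue (-1.38 ± 0.26, adjusted p = 1.10e-04, edgeR), and 13 of the 17 tumours lay below all non-tumour samples. Col1a2, at 59.5, 89 and 163 CPM in non-tumour tissue and 37, 91.5 and 121 CPM in tumours, had a log2 fold change of -0.13 ± 0.24 that did not pass (95% interval -0.60 to 0.34). Col1a1 lay between them (-0.64 ± 0.27, adjusted p = 0.048), a call that held in 15 of 39 fits without 1 library, with an adjusted p of 0.21 without ex/ex non-tumour replicate 6. Col5a1 fell (-0.76 ± 0.24, adjusted p 0.085 without ex/ex non-tumour replicate 6), and Col5a2 and Col5a3 did not pass (-0.45 and -0.30). Col11a2, a chain of collagen XI, was called lower (-1.56 ± 0.56), with ex/ex non-tumour replicate 4 at 63.9 CPM. The other 5 non-tumour samples lay at 1.09 to 3.58 CPM and the tumours at 1.91 to 5.79 CPM, and without replicate 4 the log2 fold change was 1.18. Of the beaded filament genes Col6a5 fell most (-1.77 ± 0.37), followed by Col6a2 (-1.14), Col6a1 (-1.004) and Col6a3 (-0.94, adjusted p 0.050 without ex/ex non-tumour replicate 1 and 0.10 without replicate 6). The remaining genes that fell were Col15a1 (-1.26), Col8a1 (-1.66), Col13a1 (-1.20), Col20a1 (-0.83) and Col28a1 (-1.67), the last with a median of 0.0797 CPM in tumours and a call that held in 25 of the 36 fits without 1 library in which it was tested.

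Col7a1 went the other way. It was at 1.75, 2.53 and 3.73 CPM in ex/ex non-tumour tissue and 2.08, 4.29 and 6.04 CPM in ex/ex tumours, with overlapping ranges and a log2 fold change of 0.63 ± 0.23 (adjusted p = 0.026, edgeR). The call was lost without ex/ex non-tumour replicate 5 (0.058) or 6 (0.075). In wild type the 4 non-tumour values were 6.06, 1.21, 1.42 and 2.85 CPM in replicates 1 to 4, the first of which is 1 count in the shallow library, and the log2 fold change was 1.23 ± 0.34 (adjusted p = 0.026). That call was lost without wild-type non-tumour replicate 2 (0.20) or 3 (0.15). With the B cell covariate Col7a1 passed in wild type and not in ex/ex.

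In wild type, few collagens passed between tumour and non-tumour tissue, and each call was lost without at least 1 single library. Of 37 genes 4 fell (Col4a3, Col4a5, Col13a1 and Col15a1) and Col7a1 rose, where 3.15% of all genes fell and 1.9% rose (edgeR). The median log2 fold change was -0.50, against 0.07 over all genes. Without non-tumour replicates 1 and 4 no collagen fell, Col7a1 alone rose, and the median of the collagen genes was 0.22. Without TMM scaling 1 collagen rose and 1 fell, and the calls over all genes went from 310 higher and 515 lower to 683 and 182. Col4a3 stood at 6.06, 2.52, 1.97 and 12.9 CPM in non-tumour replicates 1 to 4 and at 0, 1.17 and 2.93 CPM in tumours (-2.16 ± 0.59, adjusted p = 0.026, 0.45 without replicate 4). Col15a1 stood at 42.4, 19.8, 12.9 and 108 CPM in the same order (-1.20 ± 0.31, adjusted p = 0.017, 0.99 without replicate 4). Col13a1, at 6.06, 5.55, 5.26 and 26 CPM, and Col4a5, at 0, 6.87, 6.79 and 18.4 CPM, had log2 fold changes of -1.38 ± 0.42 and -1.22 ± 0.37, with adjusted p-values of 0.75 and 0.43 without replicate 4. In each of these genes replicate 4 held the highest value. The head-to-head partners Col4a4 (-1.46 ± 0.56) and Col4a6 (-0.44 ± 0.44) of the called Col4a3 and Col4a5 did not pass. Col9a2 and Col9a3 had log2 fold changes of 2.47 ± 0.82 and 2.51 ± 1.04 that did not pass here and did pass in DESeq2, in limma-voom and with the B cell covariate. Endothelial markers fell in 5 of 8 cases, with sums of 120 to 1161 CPM in non-tumour tissue, 1 of 6 B cell markers rose (Cr2), and 1 of 10 fibroblast markers fell (Cd34) and 1 of 6 macrophage markers fell (Adgre1), and their part in the calls was not tested.

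Between the genotypes in non-tumour tissue no collagen gene passed in edgeR or DESeq2, where 0.398% of all tested genes rose and 1.02% fell in edgeR. At an unadjusted p below 0.05 there were 9 of the 37, against 10.5% of all genes. The median log2 fold change was -0.49 and turned to 0.19 without wild-type non-tumour replicates 1 and 4. Col4a1, with 72.7, 158, 123 and 955 CPM in wild type and 90.8 to 236.9 CPM in ex/ex, had the log2 fold change -1.05 ± 0.38 (adjusted p = 0.2). Col1a1 stood at 48.4, 73.5, 52.7 and 261.9 CPM in wild type and 37.9 to 94.9 CPM in ex/ex (-0.98 ± 0.38, adjusted p = 0.25). Whether the tumour difference itself differed between the genotypes was tested by the interaction term. No collagen gene passed it in edgeR or DESeq2, where 0.0857% of all genes passed with a higher and 0.116% with a lower term in edgeR. At an unadjusted p below 0.05 there were 5 of the 37, against 14% of all genes, which is the background level. The median log2 interaction term of the 37 was -0.46, against -0.08 over all genes. Without wild-type non-tumour replicates 1 and 4 it was -1.12 against -0.07, and no collagen gene passed. In limma-voom with quality weights 19 passed with a lower and 1 with a higher term, where 27.4% and 24.4% of all genes did so. For Col14a1 the interaction was -1.31 ± 0.60 (adjusted p = 0.33, edgeR), for Col18a1 -1.22 ± 0.55 (0.32) and for Col9a3 -3.24 ± 1.26 (0.26).

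Ratios between chains within a library do not depend on its scaling and are given as a description, with no test. The ratio of Col1a1 to Col1a2, as CPM per kb, had a median of 0.636 in the 3 deeply sequenced wild-type non-tumour samples, 0.699 in wild-type tumours, 0.546 in ex/ex non-tumour tissue and 0.385 in ex/ex tumours. Its range was 0.337 to 1.12 in wild-type tumours and 0.267 to 0.649 in ex/ex tumours. Wild-type tumours 1, 4 and 7 had the 3 lowest ratios of their group, 0.337, 0.365 and 0.356, and these are the 3 with high B cell sums. Col3a1 to Col1a2 had medians of 2.70, 1.90, 2.75 and 1.14 in the same order of groups, and again wild-type tumours 1, 4 and 7 were lowest, at 0.643, 0.937 and 0.830. In ex/ex tumours this ratio ran from 0.567 to 2.34, with replicates 1, 2 and 7 at 2.27 to 2.34, where replicates 1 and 2 have the lowest B cell sums (305 and 10.7 CPM) and replicate 7 has 1399 CPM. The part of B cells in these ratios was not tested. Col4a1 to Col4a2, the overlapping head-to-head pair, kept medians of 1.81, 1.59, 1.74 and 1.62, and Col6a1 to Col6a2, the chains of 1 trimer, kept medians of 1.14, 1.15, 1.06 and 1.18.

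**Figure D5:**
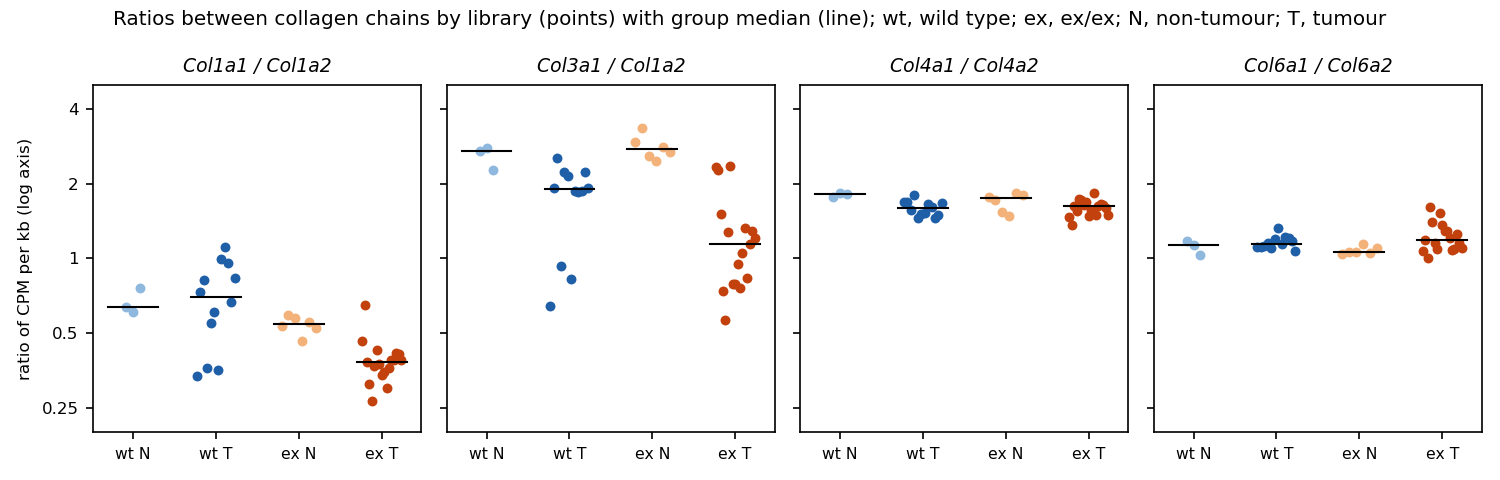
Ratio of the CPM per kb of 2 collagen chains (vertical axis, log) in each library (points) with at least 50 counts over both, with the group median as a line. The ratios to Col1a2 reach lower values in tumours, while Col4a1 to Col4a2 stays between 1.37 and 1.83.

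Genes that make, process, cross-link or bind collagen were followed in 6 lists, chosen by function. Their calls are those of the main fit, and are not given with the B cell covariate or without single libraries. In ex/ex against wild-type tumours, 9 of 18 synthesis and folding genes fell and none rose (edgeR), where 18.0% of all tested genes fell and 15.2% rose. They included Plod3, a lysyl hydroxylase (-1.11 ± 0.12), P4ha2, a prolyl hydroxylase subunit (-1.54 ± 0.26), P3h2 (-0.65 ± 0.17) and Plod1 (-0.60 ± 0.18). Of the 7 tested genes of propeptide removal 3 fell: Pcolce2, an enhancer of the C-terminal cleavage (-3.45 ± 0.52), the N-terminal protease Adamts2 (-1.004 ± 0.21) and Pcolce (-0.41 ± 0.16). Of the 5 lysyl oxidases, which cross-link collagen, Loxl4 (-2.60 ± 0.35), Loxl2 (-0.99 ± 0.22) and Lox (-1.09 ± 0.36) fell. Loxl4 was at 0.727 to 8.77 CPM in wild-type tumours and 0 to 1.13 CPM in ex/ex tumours. Collagen receptors fell in 5 of 9 tested cases, with Itga2 (-1.21 ± 0.26), Itgb1 (-0.68 ± 0.15), Itga11 (-1.14 ± 0.28) and Ddr1 (-0.88 ± 0.26) having the smallest p. The basement membrane partners fell in 12 of 15 cases. Lamb3, a laminin chain of epithelial basement membranes, had 22.1, 202 and 360.1 CPM (lowest, median and highest) in wild-type tumours and 37.5, 57.9 and 118 CPM in ex/ex tumours (-1.55 ± 0.25, adjusted p = 7.98e-06, edgeR). Others that fell were Lama5 (-1.07 ± 0.18) and Lamb2 (-0.82 ± 0.16). Of the 6 tested proteoglycans that bind fibrils only Prelp fell (-0.83 ± 0.15).

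Between tissues the same lists gave calls in both directions. In ex/ex tumours against ex/ex non-tumour tissue, 8 of 18 synthesis genes fell and 2 rose, where 23.3% of all genes fell and 23.8% rose, the latter being Colgalt1 (0.59 ± 0.15) and P4ha3 (1.86 ± 0.53). Propeptide removal fell in 4 of 7 cases, cross-linking in 3 of 5 with Lox at -2.25 ± 0.41, and receptors in 3 of 9 (Itga1, Itga2 and Itga11), a share near that of all genes. Of the basement membrane partners 9 fell, led by Lama2 of muscle and nerve basement membranes (-2.84 ± 0.30), and Lamb3 rose (0.95 ± 0.33). Prelp and Ogn fell and Fmod, fibromodulin, rose (4.14 ± 1.10) among the proteoglycans. In wild type, 3 of 15 basement membrane partners fell, Lama2 (-1.68 ± 0.39), Hspg2 (-0.92 ± 0.23) and Lama4 (-0.99 ± 0.27), and Lamb3 rose (1.47 ± 0.42). The receptor Itga1 fell (-0.88 ± 0.20), 1 of 9 tested, and none of the synthesis, propeptide, cross-linking and proteoglycan genes passed. Of all tested genes 3.15% fell and 1.9% rose there. This comparison uses the 4 wild-type non-tumour libraries, among them the shallow replicate 1 and the collagen-rich replicate 4. Between genotypes in non-tumour tissue 1 of 18 synthesis genes fell, the lysyl hydroxylase gene Plod2 (-1.64 ± 0.37), and 1 of 15 basement membrane partners fell. No gene of these lists rose there, where 1.02% of all genes fell and 0.398% rose. In the interaction no gene of these 6 lists passed.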

How the data were processed

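Gene expression was measured in 39 libraries made from 500 ng of total RNA with a stranded mRNA kit, per the labels' protocols. The authors deposited, for each library, a table of whole-number read counts per gene, not normalized. GRCm38, Trimmomatic 0.36, TopHat2 2.0.14 and HTSeq are listed, per the submitters' processing notes, without the HTSeq version, its strand setting or the annotation. Symbols and coordinates came from GENCODE M21, which matched 49326 of 49585 gene IDs (the others held 0.0851% of gene counts). Lines naming no gene were left out: no feature 3.00 to 13.3%, ambiguous 0.203 to 0.842% and not unique 29.1 to 56.5% of each table.

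All libraries entered 1 edgeR 4.0.16 quasi-likelihood fit (R 4.3.3) with 4 groups, TMM factors and filterByExpr, leaving 16327 genes. P-values were Benjamini-Hochberg adjusted across them (threshold 0.05), and standard errors were derived by dividing each log2 fold change by the root of F. CPM uses TMM-scaled library sizes, and levels per kb divide by the transcript with the longest coding sequence. The fit was tested on simulated data. Alternatives were DESeq2 1.42.0, DESeq2 size factors, limma-voom (3.58.1) with quality weights, library sizes without TMM, the mean log2 CPM of 6 B cell markers (prior count 2) as a covariate, no filter, only the groups compared, and leaving out libraries. The collagen genes, their classes and all lists were chosen with earlier results of these data known. Values by library or as lowest, median and highest are given for collagens called in at least 1 contrast and the most abundant of each class; of each list up to 4 called genes with the smallest p are named, while Lamb3 in ex/ex, Thy1 and Ly6a were named after their values were seen. The values of 1 gene of these lists are not reported here. Replicate numbers follow accession order and pair nothing. Promoter sequences are RefSeq on GRCm38.p6.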

Additional observations from a re-analysis of the deposited data

Results flagged for a closer look

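Collagen genes in the non-tumour groups were examined for a library far from the others, in 62 pairs of gene and group. The rule has a nominal rate of about 1 flag in 20 such pairs, and 11 were flagged. Of these, 6 came from wild-type non-tumour replicate 4 and 4 from ex/ex non-tumour replicate 4. Genes of 1 library are not independent, so that rate gives no expected number here. Wild-type non-tumour replicate 4 was far above the other libraries of its group in 6 genes, at 954.6 CPM for Col4a1 (others 72.7 to 158 CPM), 514.1 for Col4a2 (48.4 to 87.4), 304 for Col18a1 (42.4 to 68.5), 261.9 for Col1a1 (48.4 to 73.5), 76.03 for Col23a1 (12.1 to 22.4) and 25.96 for Col13a1 (5.26 to 6.06). This library also had the highest summed endothelial and fibroblast markers of its group, 1161 and 680 CPM.

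Ex/ex non-tumour replicate 4 stood apart in 4 genes, at 63.85 CPM for Col11a2 (others 1.09 to 3.58), 11.72 for Col9a3 (0.335 to 1.09), 28.41 for Col16a1 (7.93 to 15.5) and 204.4 for Col18a1 (63.3 to 89.7). Ex/ex non-tumour replicate 6 had 7.418 CPM of Col4a6, against 1.79 to 2.89 in the rest of its group.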

How the results depend on the processing

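No paired analysis was possible because the labels do not identify animals. They give no replicate numbers either, and those used here follow accession order. Counts are given as higher and lower collagen genes. Tumour against non-tumour in wild type (main 1 and 4) gave 3 and 4 in DESeq2, 0 and 1 without the filter, 0 and 0 with only the 2 groups compared, 8 and 3 in limma-voom (over all genes 19.8% and 17.7%), 1 and 0 without wild-type non-tumour libraries 1 and 4 (Col15a1 then at 0.29), 1 and 1 without TMM and 3 and 3 with the B cell covariate. In ex/ex (main 1 and 22) it gave 2 and 19 in DESeq2 and 2 and 19 with only the 2 groups compared. Limma-voom gave 6 and 21 there (over all genes 34.9% and 37.4%), with Col11a2 at 1.23. The counts were 2 and 19 without the 5 ex/ex libraries with Ddx3y (over all genes 3860 and 4245 of 16284). They were 3 and 21 without ex/ex tumour libraries 1 and 2 (over all genes 4546 and 5008 of 16312). Without TMM they were 3 and 14, and with the covariate 0 and 6. The 5 libraries with Ddx3y, a Y chromosome gene, are ex/ex tumours 1 to 3 and ex/ex non-tumour replicates 1 and 2. The labels give no sex. Between genotypes in tumours (main 0 and 26) the counts were 1 and 26 in DESeq2 and 2 and 25 in limma-voom (over all genes 33.7% and 38.9%). Without the Ddx3y libraries they were 1 and 26 (over all genes 3665 and 4383 of 16284). Without ex/ex tumour libraries 1 and 2 they were 1 and 26 (over all genes 3667 and 4133 of 16312), and with the covariate 0 and 9. Between genotypes in non-tumour tissue (main 0 and 0) limma-voom gave 2 and 2 (over all genes 5.23% and 4.55%), and for the interaction (main 0 and 0) 1 and 19 (over all genes 24.4% and 27.4%). The cause of these differences was not tested. Leaving out each library in turn gave 0 to 2 higher and 0 to 4 lower in wild type, 0 to 3 and 16 to 22 in ex/ex (Col11a2 at 1.18 without ex/ex non-tumour replicate 4), 0 to 2 and 24 to 27 between genotypes in tumours, 0 and 0 to 1 in non-tumour tissue, and 0 and 0 to 3 for the interaction. Of the main calls 0 of 5, 15 of 23 and 22 of 26 held in every such fit. Without TMM, the median log2 fold change over all genes moved from 0.07 to 0.38, from -0.03 to 0.24 and from -0.01 to 0.04 in these 3 contrasts, from 0.03 to 0.14 between genotypes in non-tumour tissue. Settings chosen after seeing the data were those without TMM, with the B cell covariate and without ex/ex tumour libraries 1 and 2. Wild-type non-tumour tissue, with 4 libraries of which 1 holds 438639 counts, limits the comparisons that use it.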
